A study of Mus musculus with 5 samples.

Results

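The chromatin sites described here are those listed for c-Jun and for p300 in MS5 cells given TGF-β1 together with pioglitazone. MS5 is an established mouse bone marrow stromal line, used at passage 11. Both agents were present for 5 h, TGF-β1 at 10 ng/mL and pioglitazone at 20 ng/mL, before formaldehyde fixation, and chromatin was precipitated with an antibody against c-Jun or against p300 and sequenced (ChIP-seq). Each antibody was 1 library of 1 cell line. All ChIP libraries of the series came from cells that had TGF-β1, and the lists from cells without pioglitazone enter below as a second reading of the same sites. The 2 lists with pioglitazone held 35319 peaks, 13325 for c-Jun and 21994 for p300, of 83829 in the 4 lists of the series. A c-Jun peak that shared at least 1 bp with a p300 peak is called co-bound, and a peak that shared none is called c-Jun-alone or p300-alone. These words describe positions in lists: the antibodies were used in separate libraries, so a shared position does not show both proteins on the same DNA molecule.

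c-Jun is a subunit of AP-1, a family of dimeric transcription factors that bind short DNA motifs directly and respond within hours to growth factors, stress and cytokines. p300 is a histone acetyltransferase without a sequence-specific DNA-binding domain. It is brought to enhancers and promoters by transcription factors, among them AP-1 members, the SMAD proteins that carry the TGF-β signal, and nuclear receptors. Pioglitazone is a ligand of one of these receptors, PPARγ, a driver of fat cell differentiation. In stromal cells TGF-β1 is known for raising the production of extracellular matrix, and the series title names the resolution of myelofibrosis, the scarring of bone marrow. The comparison of the antibodies asks which of the sites that carried c-Jun also carried the coactivator, and which carried either without the other.

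Each c-Jun peak was 235 bp wide and each p300 peak 227 bp, and the lists covered 3.13 and 4.99 Mb. The deposited score is 1 for every peak, so the lists hold no height, enrichment or p-value, and the depth of the libraries is unknown. The order of the rows is used below in place of strength, and no source states how the rows were sorted. Intervals are exact 95% intervals that cover counting error alone, neighbouring peaks are not independent, and with 1 library per antibody no difference has a replicate check or a p-value. Positions are in mouse build mm9. No mm9 genome or annotation was used here, so no peak is tied to a gene here, the cell type could not be checked against its marker genes, and no sequence is shown.

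More c-Jun peaks were co-bound than alone, and more p300 peaks were alone than co-bound. Of the 13325 c-Jun peaks 7400 overlapped p300, which is 55.5% (54.7 to 56.4), and 5925 were c-Jun-alone. Of the 21994 p300 peaks 7401 overlapped c-Jun, which is 33.7% (33.0 to 34.3), and 14593 were p300-alone. The lists joined into 27918 separate sites, of which 26.5% were co-bound, 21.2% c-Jun-alone and 52.3% p300-alone. Nearly every co-bound site was a simple pair: 7399 held 1 peak of each antibody, and the remaining 1 held an extra p300 peak. The difference between the shares of the 2 lists follows the difference in their lengths, since both count the same sites. With the p300 list shortened from its end to 13325 rows, each share was 43.8%.

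Within co-bound pairs the peak centres lay close together. The median distance between the centres was 47 bp (46 to 48), with quartiles of 21 and 85 bp, and the median pair shared 184 bp. Centres were within 20 bp in 1814 pairs (24.5%), within 50 bp in 3934 (53.2%) and within 100 bp in 6030 (81.5%). The p300 centre fell about as often on either side of the c-Jun centre, with a median signed offset of 1 bp. The 1 bp rule ends at a centre distance of 230 bp, where few peaks stand. Among c-Jun peaks, 44 lay within the last 10 bp inside the rule and 50 within the first 10 bp outside it, with median row positions 59.2% and 52.1% of the way down the list. The distance varied along the c-Jun list. Its median was 35.5 bp over the first 10% of rows and 60 bp over the last 10%, but the first 1% of rows, at 52 bp, were wider than the list as a whole.

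**Figure D1:**
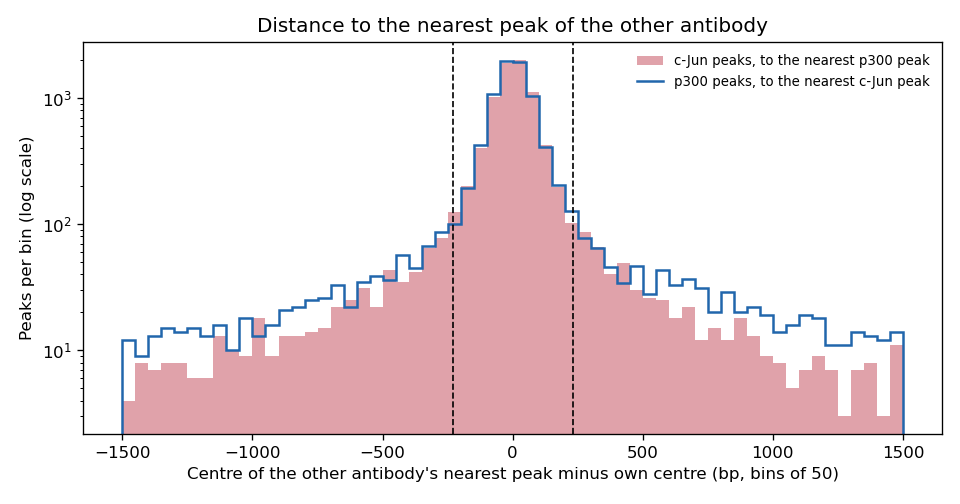
Signed distance in bp from the centre of each peak to the nearest peak centre of the other antibody, in bins of 50 bp, with the number of peaks on a log scale; filled bars are c-Jun peaks, the outline is p300 peaks, and dashed lines mark where overlap ends. Both distributions are narrow and centred near 0, with 1899 and 1994 c-Jun peaks in the 2 bins next to 0, and thin out on both sides beyond the overlap limit.

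Co-bound peaks stood higher in both lists than peaks alone. The median co-bound c-Jun peak was 38.2% of the way down the c-Jun list and the median c-Jun-alone peak 64.4%. For p300 the medians were 29.8% and 59.4%. The share with a partner fell step by step along the p300 list, from 69.8% (67.8 to 71.7) in its first 10%, where 1535 of 2199 peaks were co-bound, to 13.9% (12.4 to 15.4) in its last 10%. The c-Jun list differed at its start. The share was 75.8% (73.4 to 78.1) in the first 10%, where 1010 of 1332 peaks were co-bound, and 80.6% (78.4 to 82.7) in the second. It then fell in each step to 33.0% (30.5 to 35.6) in the last.

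**Figure D2:**
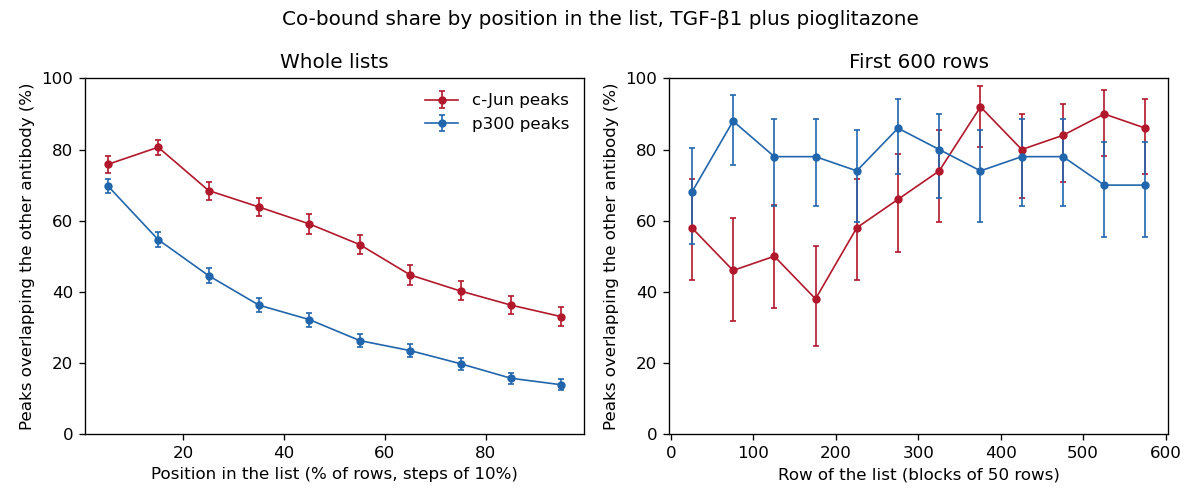
Share of peaks overlapping the other antibody in percent, against position in the list, for c-Jun (red) and p300 (blue); the left panel has steps of 10% of each list, the right panel blocks of 50 rows for the first 600 rows, and bars are exact 95% intervals. The p300 share fell in each 10% step, while the c-Jun share was between 38.0% and 58.0% in each of its first 5 blocks and between 80.0% and 92.0% in the last 5 blocks drawn.

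Partners tended to have similar places in their own lists, with wide scatter. Across all 7400 co-bound c-Jun peaks, Spearman's rho between the c-Jun row and the p300 row was 0.46, given as a description. Both partners were in the upper 50% of their lists at 3748 pairs (50.6%), and both in the lower 50% at 1291 (17.4%). The median partner of a c-Jun peak in the first 10% stood 9.21% of the way down the p300 list, and that of a c-Jun peak in the last 10% stood 56.9% down. From the other side, the partners of p300 peaks in the first 10% had a median position of 15.8% in the c-Jun list. Within the first 10% of c-Jun rows the order was not shared: rho was -0.08 across 1010 pairs.

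**Figure D3:**
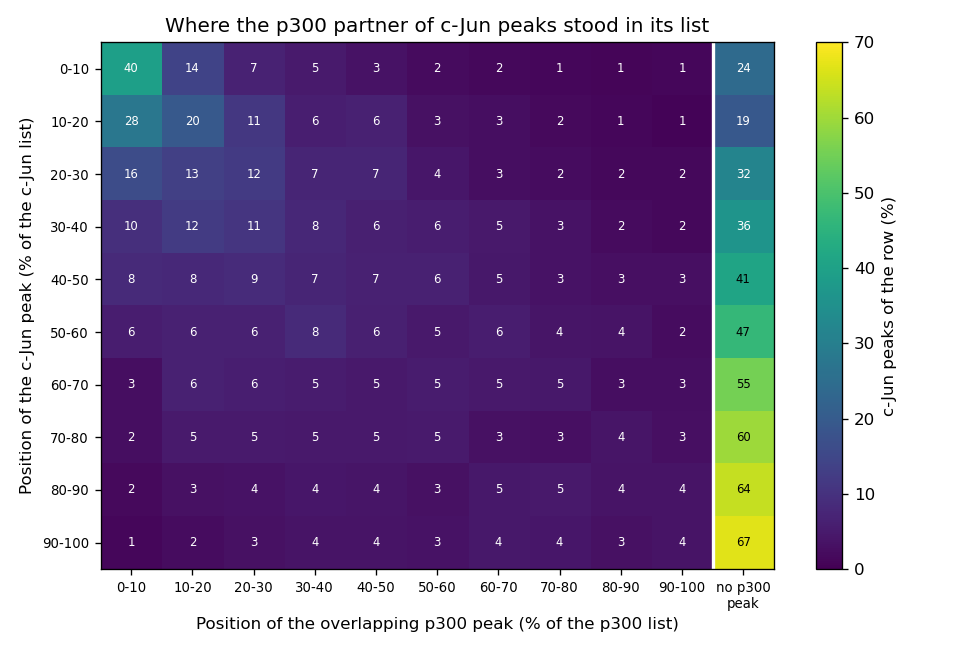
Each row is a 10% step of the c-Jun list and each column a 10% step of the p300 list, with a last column for c-Jun peaks without a p300 peak; numbers and colours give the percentage of the c-Jun peaks of that row. In the first step 528 of 1332 c-Jun peaks had a partner in the first 10% of the p300 list and 322 had none, and in the last step 17 of 1333 had such a partner and 893 had none.

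The peaks at the very top of the c-Jun list had p300 less often than the rows after them. Among its first 2% of rows 136 of 266 peaks were co-bound, 51.1% (44.9 to 57.3), and 130 were c-Jun-alone. Between 2% and 10% the co-bound peaks numbered 874 of 1066, and 18.0% (15.7 to 20.5) were alone. The bound of 2% was chosen after these shares had been seen. Where the top c-Jun peaks did have a p300 partner, it stood lower in its list than the partners of the rows after them. The partners of the first 2% had a median position 38.0% down the p300 list. Of the 136, 25 were in its first 10%, 62 between 10% and 50%, and 49 in the lower 50%. For c-Jun peaks between 2% and 10% the median was 7.76%, and 503 of 874 partners were in the first 10%.

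The change along the c-Jun rows came between about row 200 and row 350. In rows 151 to 200, 19 of 50 c-Jun peaks were co-bound and 2 had a partner in the first 10% of the p300 list. In rows 251 to 300 these counts were 33 and 19, and in rows 351 to 400 they were 46 and 34. At the top of the p300 list 34 of the first 50 peaks and 44 of the next 50 were co-bound. The c-Jun partners of those first 50 had a median position 5.69% down the c-Jun list, and 23 of the 34 were in its first 10%. No pair stood in the first 1% of both lists, which hold 133 c-Jun and 219 p300 rows. Pairs in the first 2% of both numbered 13, in the first 5% of both 167 and in the first 10% of both 528.

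The top c-Jun peaks were listed in both treatments. All 266 of the first 2% overlapped a c-Jun peak listed without pioglitazone, against 58.4% of all c-Jun peaks. Between 2% and 10% of the list, 838 of 874 co-bound and 154 of 192 c-Jun-alone peaks did so. p300 without pioglitazone was listed at 94 of the 136 co-bound peaks in this group, 69.1% (60.6 to 76.8), and at 851 of the 874 co-bound peaks between 2% and 10%, 97.4% (96.1 to 98.3). At the 130 top c-Jun-alone peaks it was listed at 37, 28.5% (20.9 to 37.0), against 33.7% of all c-Jun-alone peaks. At the 192 c-Jun-alone peaks between 2% and 10% it was listed at 68, 35.4% (28.7 to 42.6), so these intervals overlap. Taking co-bound and alone peaks together, the share with p300 was lower in the first 2% than between 2% and 10% in both p300 lists. The centre distance of the co-bound pairs was also wider in the group, with a median of 51.5 bp in the first 2% and 34 bp between 2% and 10%.

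The first c-Jun-alone rows are also the first rows of the c-Jun list. Rows 1 to 5 were chr8:74134856-74135090, chr17:34052898-34053132, chr9:106183484-106183718, chr2:170336650-170336884 and chr10:80755819-80756053. Each of these 5 c-Jun peaks had a c-Jun peak without pioglitazone at a centre distance of 0 to 17 bp. They differed in how far p300 was. At the chromosome 2 site the nearest p300 centre lay 259 bp away, just outside the rule, at p300 row 14137. On chromosome 17 it lay 3793 bp away, at row 14947. On chromosomes 8, 9 and 10 it lay 26504, 74867 and 24909 bp away. The sites on chromosomes 9 and 10 did overlap a p300 peak without pioglitazone, with centres 20 and 3 bp apart, and the other 3 did not.

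The first co-bound c-Jun rows had p300 partners in the upper 50% of the p300 list, none of them in its first 10%. The sites were chr10:36694099-36694333 at c-Jun row 6, chr15:101114479-101114713 at row 8, chr19:53674619-53674853 at row 9, chr19:57685159-57685393 at row 10 and chr19:41922615-41922849 at row 11. Their p300 partners stood at rows 8429, 3335, 10112, 5879 and 8069 of 21994, between 15.2% and 46.0% of the way down, with centres 8, 1, 38, 7 and 39 bp away. All 5 had c-Jun without pioglitazone at rows 6 to 11 of that list. One of the 5, the site on chromosome 15, also overlapped p300 without pioglitazone.

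The first 5 co-bound p300 rows had c-Jun partners outside the first 10% of the c-Jun list, although 23 of the 34 partners in the first 50 p300 rows were within it. The top p300 peak, chr6:113256929-113257155, overlapped the c-Jun peak at row 3643 of 13325, with centres 100 bp apart. The p300 peaks at rows 2, 3, 6 and 7 were chr7:134920615-134920841, chr19:56622742-56622968, chr9:99469096-99469322 and chr5:130006864-130007090. Their c-Jun partners stood at rows 2723, 1997, 7221 and 3791, with centres 57, 3, 96 and 7 bp away. All 5 sites overlapped p300 without pioglitazone, as did 341 of the 344 co-bound p300 peaks in the first 2% of the list. The sites on chromosomes 19, 9 and 5 overlapped c-Jun there too, and at the sites on chromosomes 6 and 7 the nearest c-Jun centre without pioglitazone lay 69342 and 38602 bp away.

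The first p300-alone rows mixed near misses with sites far from c-Jun. At chr11:99091781-99092007, p300 row 4, the nearest c-Jun centre was 251 bp away, and at chr8:59029677-59029903, row 12, it was 302 bp away. At chr10:88193925-88194151, row 5, it was 2883 bp away. At chr16:57606968-57607194, row 8, it was 57829 bp away, and at chr7:20147554-20147780, row 10, it was 202738 bp away. All 5 overlapped p300 without pioglitazone, 4 of them at rows 13 to 25 of that list and the chromosome 11 site at row 259. Of the 95 p300-alone peaks in the first 2% of p300 rows, 90 overlapped p300 without pioglitazone. c-Jun without pioglitazone overlapped the sites on chromosomes 11, 16 and 8.

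Sites that were high in both lists were chosen by the lower of their 2 positions, a rule added after the lists had been seen. The first 5 by that measure were chr9:20617324-20617558, chr15:101200837-101201071, chr16:5136109-5136343, chr6:143314454-143314688 and chr6:143589217-143589451, given by their c-Jun peak. Their c-Jun rows were 205, 220, 226, 165 and 236, and their p300 rows 264, 49, 247, 376 and 229. The centres were 19 to 72 bp apart. Both antibodies were listed at all 5 without pioglitazone as well, and at 74.4% of all co-bound c-Jun peaks. All 5 c-Jun rows lie beyond row 150, and 1 of them, row 165, lies in the block of 50 rows with the lowest co-bound share.

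Peaks alone were often within reach of the other antibody, c-Jun-alone peaks more so. Of 5925 c-Jun-alone peaks, 612 had a p300 centre within 500 bp (10.3%, 9.57 to 11.1), 1762 within 5 kb (29.7%, 28.6 to 30.9) and 2482 within 10 kb (41.9%), and 1191 had none within 50 kb (20.1%). Of 14593 p300-alone peaks, 639 had a c-Jun centre within 500 bp (4.38%, 4.05 to 4.72), 2570 within 5 kb (17.6%, 17.0 to 18.2) and 4227 within 10 kb (29.0%), and 4494 had none within 50 kb (30.8%). The p300 list is the longer one, which by itself brings more c-Jun peaks near a p300 peak. Median distances were 14755 bp for c-Jun-alone and 24856 bp for p300-alone peaks. Flanking on both sides was rare: 33 c-Jun-alone peaks lay between p300 peaks within 1 kb on either side, and 18 p300-alone peaks between c-Jun peaks.

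Peaks alone had a neighbour of the other antibody more often than co-bound peaks had one beside their partner. The overlap rule fixes at least part of this contrast. A p300 peak other than the partner lay within 5 kb of 21.2% (20.3 to 22.2) of co-bound c-Jun peaks, against the 29.7% of c-Jun-alone peaks. Within 10% steps of the c-Jun list the difference was -11.6 percentage points (-13.2 to -10.0). A second c-Jun peak lay within 5 kb of 12.2% (11.5 to 13.0) of co-bound p300 peaks, and within 10% steps of the p300 list the difference from p300-alone peaks was -10.2 points (-11.2 to -9.15). At least part of this gap is built in. No 2 p300 peaks of the list had centres closer than 324 bp and no 2 c-Jun peaks closer than 351 bp, which keeps a second peak away from a partner. Among c-Jun-alone peaks with p300 within 5 kb, 612 of 1762 had it within 500 bp. Among p300-alone peaks with c-Jun within 5 kb, 639 of 2570 had it within 500 bp. How much of the gap remains beyond such near peaks was not tested, so it is not read as a trait of the classes. For neighbours of the own antibody, co-bound and alone c-Jun peaks differed by 1.70 points (0.61 to 2.79) over the whole list and by 0.48 (-0.65 to 1.62) within steps. Co-bound p300 peaks had another p300 peak within 5 kb less often than p300-alone peaks at like places in the list, by -5.12 points (-6.35 to -3.90), while over the whole list the difference was 0.01 (-1.13 to 1.17).

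Sites were joined into domains wherever neighbouring centres were no more than 12500 bp apart. Of the 27918 sites, 7173 (25.7%) were in domains of 3 or more. The make-up of the sites shifted by a few points between sparse and dense domains. Co-bound sites made up 26.3% (25.6 to 27.1) of sites that stood by themselves and 30.2% (28.0 to 32.4) of sites in domains of 5 or more, c-Jun-alone sites made up 21.6% (20.9 to 22.3) and 18.2% (16.4 to 20.1), and p300-alone sites 52.1% and 51.6%. In domains of 3 or more sites lay 25.8% (24.8 to 26.8) of co-bound, 24.3% (23.2 to 25.5) of c-Jun-alone and 26.2% (25.5 to 26.9) of p300-alone sites. At like places in the p300 list, co-bound p300 peaks were less often in such domains than p300-alone peaks, by -6.97 points (-8.25 to -5.68) within 10% steps. Over the whole p300 list the difference was -0.38 points (-1.61 to 0.85). A co-bound pair counts as 1 site, while a p300-alone peak and a c-Jun peak beside it count as 2. How far this counting enters the difference was not tested.

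The 18831 domains show how far the antibodies kept to the same neighbourhoods. Both were listed in 7951 domains, and 6430 of these held at least 1 co-bound site. In the other 1521 both antibodies were listed without any overlap. c-Jun was listed without p300 in 2959 domains and p300 without c-Jun in 7921. Of the 303 domains with at least 5 sites, 258 held a co-bound site, 9 had no c-Jun and 0 had no p300. In domains of this size 30.2% of sites were co-bound, against 26.5% of all sites, and 21.2% of all sites were c-Jun-alone. A domain with many sites holds each class more easily, and what the number of sites alone would give was not tested.

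The domain with most peaks, chr8:124657082-124710555, held 7 c-Jun and 11 p300 peaks over 53.5 kb, and 6 of its 12 sites were co-bound. Its co-bound p300 peaks included row 26 of the p300 list, paired with c-Jun row 825, and p300 row 497, paired with c-Jun row 326. The next domains were chr6:135245611-135314709 (c-Jun 5, p300 8), chr4:150144755-150182890 (6 and 7), chr11:87978240-88029144 (5 and 8) and chr1:71927070-71964108 (5 and 7), the last being 1 of 7 domains with 12 peaks. They held 3, 5, 3 and 4 co-bound sites. In these 5 domains p300 had more peaks outside the co-bound sites than c-Jun had. The same holds over the whole lists, with 14593 p300-alone and 5925 c-Jun-alone peaks.

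Domains with p300 alone could be as dense as 6 peaks. chr6:114725217-114762820 and chr12:70548910-70575632 each held 6 p300 peaks and no c-Jun peak, and chr9:102619941-102649379, chr2:157939643-157965629 and chr19:55824187-55843658 each held 5. Without pioglitazone the first 2 of these domains had 3 c-Jun peaks each, the chromosome 9 and 19 domains had 1 and the chromosome 2 domain had 0. In the order given, the p300 list without pioglitazone had 5, 5, 4, 5 and 4 peaks in these domains. Over the whole lists, 7783 of 17044 c-Jun peaks without pioglitazone overlapped a c-Jun peak with it. The 5 domains were picked for having p300 and no c-Jun with pioglitazone. Any c-Jun peak listed there without it is therefore missing by that rule. No read counts show whether c-Jun signal was in these domains with pioglitazone, below the listing threshold.

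The largest domains with c-Jun alone held fewer peaks. There were also fewer c-Jun-alone than p300-alone peaks, 5925 against 14593, and what these numbers alone would give was not tested. chr3:146113510-146137050, chr9:113840951-113861476, chr11:3459080-3473232 and chr11:34624863-34647228 each held 4 c-Jun peaks and no p300 peak, and chr3:88588849-88609553 held 3, as did 10 domains in all. The 4 peaks of the first domain stood at c-Jun rows 8864, 5439, 7119 and 11633, all in the middle or the end of the list. Without pioglitazone the p300 list had 2, 2, 3 and 1 peaks in the first 4 domains, and the c-Jun list had 0, 0, 1 and 1. In the fifth domain the p300 list had 0 and the c-Jun list 1. Of all c-Jun-alone peaks, 33.4% overlapped a c-Jun peak and 33.7% a p300 peak listed without pioglitazone. These 5 domains were picked for having c-Jun and no p300 with pioglitazone. Any p300 peak listed there without pioglitazone is therefore missing with it by that rule.

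**Figure D4:**
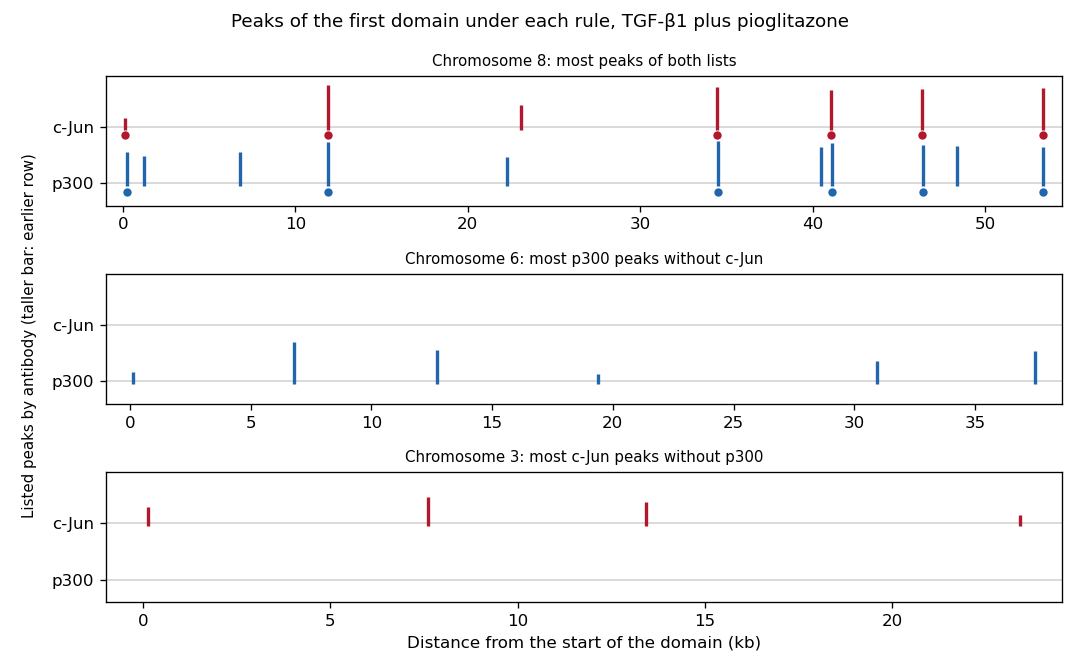
Peaks of the domain with most peaks of both lists (chromosome 8), of the first domain with p300 alone (chromosome 6) and of the first with c-Jun alone (chromosome 3), by distance in kb from the start of each domain; a taller bar is an earlier row of its list, and a dot marks a co-bound peak. On chromosome 8 the 6 dotted c-Jun peaks each face a p300 peak, while 5 p300 peaks and 1 c-Jun peak have no counterpart.

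Chromosome 13 had the highest co-bound share in both lists. There 432 of 697 c-Jun peaks were co-bound, 62.0% (58.3 to 65.6), and 40.3% (37.3 to 43.3) of 1073 p300 peaks. Its c-Jun share was 6.80 points (2.98 to 10.5) above that of the other chromosomes, and 10.3 points (6.74 to 13.8) within 10% steps of the list. For p300 the differences were 6.95 (3.93 to 10.0) and 7.64 (4.88 to 10.4). Leaving aside the Y, with 1 peak in each list, chromosome X had the lowest shares, 47.9% of 259 c-Jun peaks and 29.0% of 428 p300 peaks, and its peaks stood low in the lists, with median positions 72.2% and 73.0% down.

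Against the other chromosomes the X shares of c-Jun peaks differed by -7.81 points (-14.1 to -1.48), but by 0.68 (-5.37 to 6.73) within 10% steps. Those of p300 peaks differed by -4.77 (-9.07 to -0.18), but by 3.71 (-0.38 to 7.81) within such steps. On chromosome 7 the c-Jun share was lower by either measure, by -7.29 points (-10.9 to -3.65) and by -5.88 (-9.32 to -2.43) within steps. On chromosome 19 the p300 share was -5.80 points (-8.87 to -2.73) from the others within steps and -1.45 (-4.81 to 2.04) over the whole list. The number of c-Jun peaks per p300 peak went from 0.546 on chromosome 15 to 0.670 on chromosome 9, with 0.606 over all. These intervals are not adjusted for the 20 chromosomes compared per antibody.

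**Figure D5:**
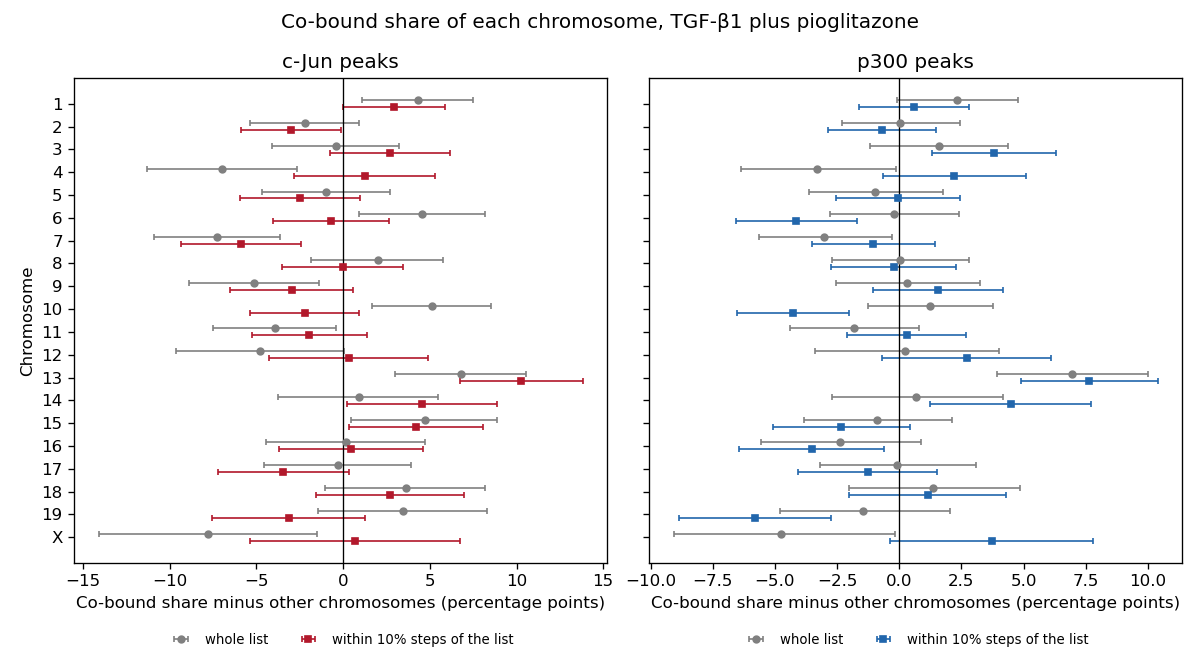
Co-bound share of each chromosome minus that of all others, in percentage points, for c-Jun peaks (left) and p300 peaks (right); grey circles use the whole list, coloured squares compare within 10% steps of the list, and bars are 95% intervals. Chromosome 13 lies above 0 by both measures for both antibodies, while chromosome X lies below 0 over the whole list and above it, with intervals that reach 0, within steps.

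The lists without pioglitazone gave a second reading of the 3 classes. Of all c-Jun peaks with pioglitazone 58.4% overlapped a c-Jun peak without it, and of all p300 peaks 73.1% overlapped a p300 peak without it. Co-bound sites were above these shares. c-Jun without pioglitazone was listed at 78.4% (77.5 to 79.4) of co-bound and 33.4% (32.2 to 34.6) of c-Jun-alone peaks, a difference of 45.1 points (43.5 to 46.6) that was 36.6 (35.0 to 38.2) within 10% steps of the list. p300 without pioglitazone was listed at 91.3% (90.6 to 91.9) of co-bound and 63.9% (63.1 to 64.7) of p300-alone peaks, a difference of 27.4 points (26.4 to 28.4), or 17.1 (16.1 to 18.2) within steps.

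The other antibody was also read at the peaks alone. Of the c-Jun peaks with pioglitazone 65.6% overlapped a p300 peak without it, and of the p300 peaks 43.2% overlapped a c-Jun peak without it. Among c-Jun-alone peaks 1995 of 5925 had p300 in the list without pioglitazone, 33.7% (32.5 to 34.9), and among co-bound c-Jun peaks 91.2% (90.5 to 91.8) did. Among p300-alone peaks 3728 of 14593 had c-Jun there, 25.5% (24.8 to 26.3). Neither antibody was listed without pioglitazone at 3099 c-Jun-alone peaks (52.3%) and 351 co-bound c-Jun peaks (4.74%). The same held for 4755 p300-alone peaks (32.6%) and 355 co-bound p300 peaks (4.80%). c-Jun was listed without p300 in both treatments at 831 peaks, 14.0% (13.2 to 14.9) of the c-Jun-alone class. Among co-bound c-Jun peaks, 300 (4.05%) had c-Jun and no p300 in the lists without pioglitazone.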

How the data were processed

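ChIP-seq peak lists of 4 libraries were used, 1 per antibody and treatment; no file of the pooled input was used here. Per the submitters' processing notes, Bowtie2 (2.3.4.3), SAMtools (1.9) and HOMER were used with build mm9; the sources used here name no peak-calling settings. The deposited score is 1 in every row and was not used. Overlaps were computed from peak centres in Python 3.11.15 (numpy 2.4.6, pandas 2.3.3, scipy 1.17.1) and gave the counts of bedtools 2.31.1 in 12 of 12 pairs of lists. Shares carry exact (Clopper-Pearson) intervals, differences intervals combined from these, and differences within 10% steps Mantel-Haenszel weighted intervals. The functions were tested on simulated data. The members and lists were chosen with earlier results of these data known. Named sites are the first 5 rows of each class and antibody, and named domains the 5 with most peaks under each rule, ties going to the earlier row. Motifs, promoters and gene lists were not analysed here.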

Additional observations from a re-analysis of the deposited data

How the results depend on the processing

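The co-bound shares depended most on the overlap rule and on list length. The c-Jun and p300 shares were 47.5% and 28.7% with 50% overlap of both peaks, 45.3% and 27.4% with centres within 100 bp, 60.1% and 36.6% within 500 bp, 54.4% and 33.0% with peaks of 200 bp, and 43.8% for both with the p300 list shortened. With both lists cut to their upper 50%, or without X and Y, or without the first 2% of c-Jun rows (added after the lists were seen), they stayed within the reported intervals. The median centre distance was 39 bp with 50% overlap and 41 bp in the upper 50%. Under these 2 settings the share in the first 10% was 69.1% and 68.8% for c-Jun and 64.2% and 61.6% for p300, and in the first 1% of c-Jun rows, reported at 53.4%, it was 41.4% and 33.8%. Shares of c-Jun-alone peaks near p300 were 16.3% within 1 kb, 41.9% within 10 kb and 20.9% in the upper 50%, and of p300-alone peaks near c-Jun 8.04%, 29.0% and 14.0%. For domains of 3 or more sites, co-bound minus alone was 1.46 points for c-Jun, -2.33 when sites were joined within 5 kb, 3.97 within 25 kb and -1.07 within 10% steps. For p300 it was -0.38, -1.17 within 5 kb, 0.43 within 25 kb and -6.97 within steps. The sign for c-Jun thus depends on the setting. For p300 the 1 positive value, 0.43, has an interval that reaches across 0 (-0.98 to 1.83). The intervals of -1.17 (-1.73 to -0.59) and -6.97 (-8.25 to -5.68) lie below 0. The differences on X turned to 0.68 and 3.71 within steps. The differences in listing without pioglitazone were 36.6 and 17.1 within steps and 42.9 and 25.1 with centres within 500 bp. The causes of these shifts were not tested. No paired analysis was possible because each antibody and treatment is 1 library. Alternatives for motifs, promoters and genes were not run, for want of an mm9 sequence. Unknown depth limits every count of peaks alone.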

Other observations

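The first 2% of the c-Jun list also differed from the rest in its shares of peaks on chromosomes X and 1, a comparison made after the lists had been seen. Chromosome X held 13 of these 266 peaks, 4.89% (2.63 to 8.21), and 246 of the other 13059, 1.88% (1.66 to 2.13). Chromosome 1 held 5, 1.88% (0.61 to 4.33), against 991 of the others, 7.59% (7.14 to 8.06). Of the 13 peaks on X, 5 were co-bound. Co-bound peaks of the first 2% stood by themselves, with no other site within 12500 bp, in 52.9% (44.2 to 61.6), and those between 2% and 10% in 39.1% (35.9 to 42.5). The share was 50.6% (48.7 to 52.4) for co-bound c-Jun peaks in the lower 50% of the list. It was 46.2% for all co-bound sites and 46.5% for all sites, both inside the interval of the first 2%. For c-Jun-alone peaks it was 43.8% (35.2 to 52.8) in the first 2% and 40.6% (33.6 to 47.9) between 2% and 10%.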
